A study of Mus musculus with 6 samples.

Results

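The transcripts of 10 heat shock protein genes were compared in mouse colon carcinoma cells with and without knockdown of HIF-1α, the oxygen-regulated subunit of hypoxia-inducible factor 1. The genes were taken by name, as Hspa1a, Hspa1b, Hspa8, Hsph1, Dnajb1, Hsp90aa1, Hsp90ab1, Hspb1, Hspd1 and Hspe1, and all 10 were among the 22880 genes measured. The proteins of 8 of them act mainly in the cytosol and nucleus, whereas those of Hspd1 and Hspe1 work in mitochondria. The line, MC-38GFP, was derived from a colon adenocarcinoma of the mouse and expresses green fluorescent protein. All cells had been transduced with the pLKO.1-puro vector, without in vivo passaging. The 3 HIF-1α-KD samples carried the knockdown of HIF-1 alpha and the 3 Mock samples were the control. Per the study's methods, tumors grew in the cecum wall of C57BL/6J mice, were digested with enzymes at body temperature and sorted for living fluorescent cells that lacked CD45 (found on leukocytes) and CD31 (found on endothelium). Neither the labels nor the methods give the age of the mice, whether a line was 1 clone, or whether a sample was a single tumor, so the p-values measure the spread between these samples.

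Heat shock proteins are chaperones that bind unfolded proteins and help them to fold, assemble or be degraded. HSP70 proteins (Hspa1a, Hspa1b and Hspa8) cycle on and off their clients with ATP. Co-chaperones of the HSP40 family, such as Dnajb1, deliver the client and start the ATP step, and HSP110 proteins such as Hsph1 exchange the nucleotide and so release the client. HSP90 proteins (Hsp90aa1 and Hsp90ab1) act on late folding states of kinases, receptors and other regulators, HIF-1α being one of their known clients. Heat shock factor 1 (Hsf1) activates many of these genes through heat shock elements, arrays of the unit GAA and its reverse complement, when proteins misfold. Warming, enzymatic digestion and sorting of tissue are known to induce heat shock and early response genes too.

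The promoters of Hsph1 and Dnajb1 are shown because these genes lay in opposite directions, that of Hspa1b for the inducible HSP70 pair (the window of Hspa1a is nearly identical), and those of Hspb1 and the Hspd1 and Hspe1 pair because they hold several heat shock matches. Windows of 250 bases before the transcription start were taken from RefSeq (GRCm38.p6), which gave windows for 7 of the 10 genes (none for Hspa8, Hsp90aa1 and Hsp90ab1). A heat shock match was a head-to-head or tail-to-tail pair of units, GAANNTTC or TTCNNGAA, and each of these reads the same on both strands. A match to the core of the hypoxia response element was ACGTG or GCGTG on either strand (CACGT or CACGC on the other). Matches are in capitals, and each sequence runs 5′ to 3′ along the gene's strand. For Hsph1 the first 240 bases of the upstream window are printed. RefSeq and GENCODE place the start of Hsph1 differently, so the last 30 printed bases, with the match in capitals, lie before the RefSeq start but inside the GENCODE gene model.
Hspa1b, chr17:34959239-34959488, minus strand: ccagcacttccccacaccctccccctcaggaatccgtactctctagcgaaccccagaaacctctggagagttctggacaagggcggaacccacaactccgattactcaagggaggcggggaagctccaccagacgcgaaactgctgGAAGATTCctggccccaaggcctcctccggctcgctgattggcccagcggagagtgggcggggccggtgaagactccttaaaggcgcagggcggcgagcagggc
Hsph1, chr5:149636347-149636586, minus strand: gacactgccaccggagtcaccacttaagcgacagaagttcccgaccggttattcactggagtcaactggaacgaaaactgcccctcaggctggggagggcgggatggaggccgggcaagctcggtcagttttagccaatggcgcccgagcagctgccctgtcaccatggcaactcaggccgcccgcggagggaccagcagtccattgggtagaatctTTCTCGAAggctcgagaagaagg
Dnajb1, chr8:83607925-83608174, plus strand: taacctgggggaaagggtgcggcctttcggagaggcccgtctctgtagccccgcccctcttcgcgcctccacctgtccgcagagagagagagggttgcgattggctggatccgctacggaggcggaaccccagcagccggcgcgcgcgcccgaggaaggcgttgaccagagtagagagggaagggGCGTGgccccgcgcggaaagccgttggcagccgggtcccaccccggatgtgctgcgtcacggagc
Hspb1, chr5:135887669-135887918, plus strand: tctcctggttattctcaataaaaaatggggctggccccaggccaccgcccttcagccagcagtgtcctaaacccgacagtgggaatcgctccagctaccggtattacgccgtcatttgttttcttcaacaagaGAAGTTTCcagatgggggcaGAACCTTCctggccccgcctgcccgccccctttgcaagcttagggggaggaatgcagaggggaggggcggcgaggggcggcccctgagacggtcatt
Hspd1 and Hspe1, between the downstream start of Hspd1 and the start of Hspe1, chr1:55088058-55088077, plus strand: gTTCTAGAACCTTCCGGAAg

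Hspd1 and Hspe1 lie head to head on chromosome 1, and the stretch of 20 bases printed for them holds 3 overlapping heat shock matches. Such a match was found in 7 of the 10 windows of these 7 genes (6 of the genes), and 12.8% of all 32851 RefSeq promoter windows of this length held at least 1. The windows with a match are not separate sites, so the 2 shares are not directly comparable. Both windows of Hsph1 hold the same match, Hspd1 and Hspe1 share theirs, and Hspa1a and Hspa1b are near copies. Hspd1 had matches only in its downstream window. Windows with 3 or more matches made up 0.14% of all windows. Neither window of Dnajb1 held these letters, which says only that the 2 arrangements searched are not in those 250 bases. The windows of Hspa1a and Hspa1b differed at 3 of 250 bases, and each had its match 97 bases before the start. A hypoxia response core was found in 6 of these 10 windows (of Dnajb1, Hspd1 and Hspe1, and the downstream window of Hsph1) and in 38.6% of all windows. The downstream windows of Dnajb1 (chr8:83608298-83608547) and Hspd1 (chr1:55087933-55088182) lie inside the annotated genes. Their matches are thus not upstream of the whole gene. A match to letters is a description and not a bound site.

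Each library held between 19845852 and 30809139 reads on genes. The values given below are normalized counts, in which the authors divided the reads of a gene by 1 factor per library. Hif1a itself was 6914, 5424 and 4945 in Mock, against 697, 3142 and 1928 in HIF-1α-KD cells (normalized counts, replicates 1 to 3), and its target Car9, carbonic anhydrase 9, was 4470, 3382 and 4356 against 212, 663 and 1041. The knockdown was thus weakest by Hif1a in HIF-1α-KD replicate 2. HIF-1α-KD replicate 1 stood apart from the other libraries on the first principal component (39.2% of the variance), at 56.2 against −39.1 to 10.3 for the others. Epithelial markers (Epcam, Cdh1, keratins, Cdx2 and Vil1) were close to absent, with a summed normalized count of 89.9, 66.0 and 591 in Mock and 77.4 to 134 in HIF-1α-KD cells, and 3 of the 8 passed the filter on low counts. Mock replicate 3 stood apart in this sum, with Krt8 (191) and Krt19 (121) as its largest parts. The sort kept out CD45-positive cells, yet the summed count of 10 leukocyte markers was 12464 in HIF-1α-KD replicate 3, against 2601 to 4093 in the other libraries.

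The heat shock genes did not share a direction in HIF-1α-KD cells. Hsph1, the HSP110 gene, was 1.98-fold higher than in Mock cells and no library of one group reached those of the other, while Dnajb1 and the inducible HSP70 genes Hspa1a and Hspa1b had lower means. The groups overlapped for the abundant chaperones Hspa8, Hsp90aa1 and Hsp90ab1 and for the mitochondrial pair. The comparison used limma on log2(normalized count + 1), and 9 of the 10 genes passed the filter on low counts. At an adjusted p under 0.05 over the 12014 genes tested, limma called 0 of the 9, beside 0.391% of all genes (0.00832% higher and 0.383% lower). At an unadjusted p under 0.05 there were 3 (Hsph1, Hspd1 and Dnajb1, of which Hspd1 lost this in 9 of 16 alternative settings), beside 12.7% of all genes (7.04% higher and 5.69% lower), and at that p with a fold change of at least 1.5 there were 2, beside 7.48%. These 2 were Hsph1, which was higher (4.02% of all genes were called in this direction), and Dnajb1, which was lower (3.46%). The groups did not overlap for 3 of the 9 (Hsph1, Dnajb1 and Hspa1a), beside 19.2% of all genes (10.4% with HIF-1α-KD above and 8.75% with it below). With edgeR on the recovered reads 0 of the 9 were called, beside 0.391% of all genes, and with DESeq2 1, Hsph1, beside 2.36% of all genes. The median log2 fold change of the 9 was 0.09, and that of all genes tested was 0.02.

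**Figure D1:**
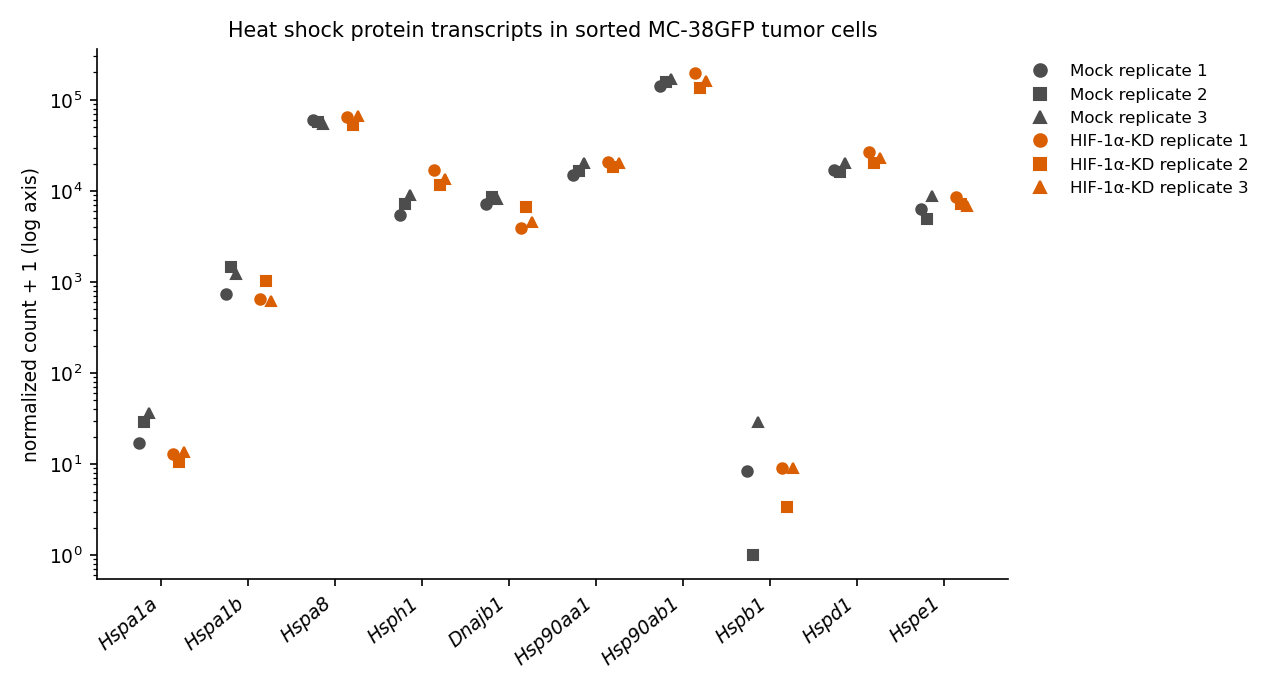
Normalized count plus 1 (log axis) of each heat shock gene in the 3 Mock libraries (grey) and the 3 HIF-1α-KD libraries (orange), with circles, squares and triangles for replicates 1, 2 and 3. The groups are apart for Hsph1 (HIF-1α-KD higher) and for Dnajb1 and Hspa1a (HIF-1α-KD lower), and they overlap for the other 7 genes.

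Hsph1 (ENSMUSG00000029657, chr5:149614287-149636376, minus strand, GRCm38) showed the largest increase among the 9. Its normalized count was 5375, 7100 and 9033 in Mock, against 16800, 11680 and 13590 in HIF-1α-KD cells. Every HIF-1α-KD library was above every Mock library, and Mock replicate 1 was the lowest. The log2 fold change was 0.98 ± 0.22 (SE, n = 3 per group), with a 95% interval of 0.49 to 1.47 and an adjusted p of 0.161 in limma. With DESeq2 the log2 fold change was 0.96 and the adjusted p 0.0036, so the call depends on the test. Without Mock replicate 1 the limma value was 0.79 and without Mock replicate 3 it was 1.17.

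Dnajb1 (ENSMUSG00000005483, chr8:83608193-83612653, plus strand, GRCm38), the HSP40 partner of the stress-induced HSP70, lay in the opposite direction. Its normalized count was 7239, 8525 and 8146 in Mock, against 3923, 6616 and 4507 in HIF-1α-KD cells. All HIF-1α-KD libraries were below the Mock libraries, replicate 2 by the smallest margin. The log2 fold change was −0.70 ± 0.20 (SE, n = 3 per group; 95% interval −1.15 to −0.25), with an adjusted p of 0.258 in limma and 0.0642 in DESeq2. Without HIF-1α-KD replicate 1 it was −0.54, which is under 1.5-fold, so that 1 of the 9 genes and not 2 then passed p and fold, beside 8.14% of all genes in that setting.

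The ratio of Hsph1 to Dnajb1 within a library does not depend on the scaling between libraries. The log2 ratio of their normalized counts was −0.43, −0.26 and 0.15 in Mock, against 2.10, 0.82 and 1.59 in HIF-1α-KD cells. In Mock cells both genes thus had nearly equal counts, and in each HIF-1α-KD library Hsph1 had the larger count. The means differed by 1.69 on the log2 scale, the groups did not overlap and the exact permutation test gave 0.1 (two-sided), the smallest p that 3 against 3 libraries allow. This ratio was chosen after the values of both genes were seen, so it describes the same difference again. Relative to Hspa8, Hsph1 was higher without overlap (difference of 0.89, exact p = 0.1), whereas the groups overlapped for Dnajb1 relative to Hspa8 (difference of −0.80, exact p = 0.2).

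**Figure D2:**
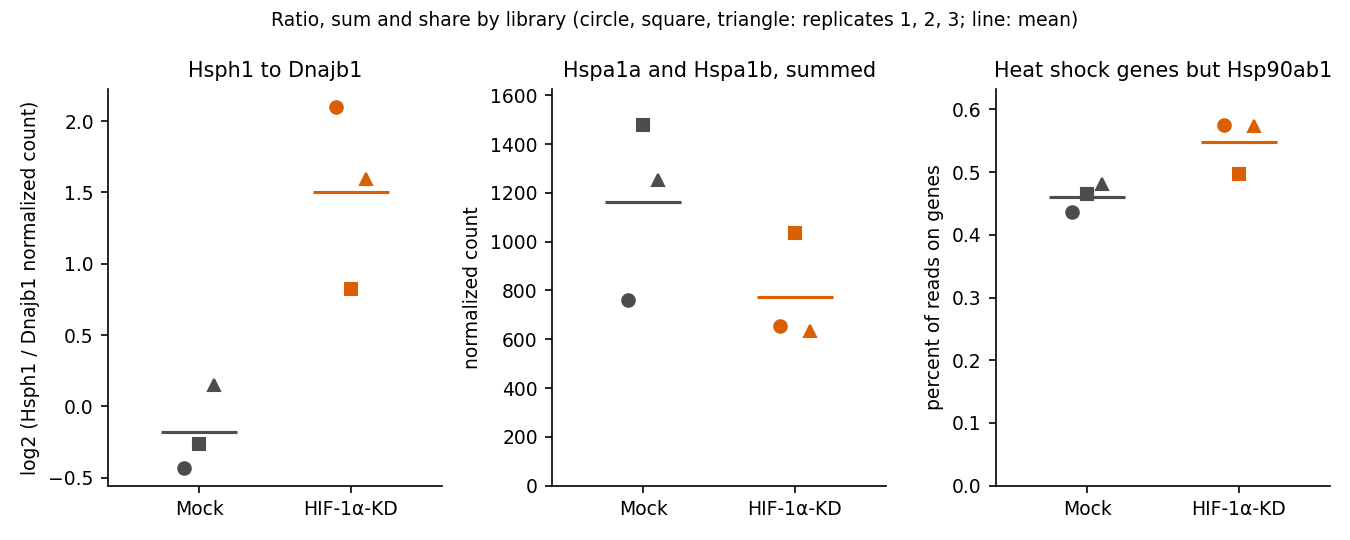
Log2 ratio of Hsph1 to Dnajb1 (left), summed normalized count of Hspa1a and Hspa1b (middle) and percent of reads on genes that fell on the heat shock genes other than Hsp90ab1 (right), by library and with the mean of each group as a line. The groups are apart in the left and right panels, with HIF-1α-KD above, and overlap in the middle one.

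Hspa1a and Hspa1b, the stress-induced HSP70 genes, are near-identical neighbours on chromosome 17 (chr17:34969190-34972156 and chr17:34956436-34959238, minus strand, GRCm38). Of the 100-base windows of the Hspa1a transcript 47.1% also occur in that of Hspa1b, and 49.9% the other way round. Reads may thus have been assigned to the wrong copy or left uncounted, since the handling of shared reads is not stated. Hspa1b was 746, 1450 and 1216 in Mock, against 643, 1024 and 623 in HIF-1α-KD cells (normalized counts). Mock replicate 1 lay among the HIF-1α-KD libraries, and the groups overlapped. The log2 fold change of Hspa1b was −0.56 ± 0.28 (SE; 95% interval −1.21 to 0.09; adjusted p = 0.46 in limma). With 1 library left out it ranged from −0.84 without Mock replicate 1 (unadjusted p of 0.011 in limma) to −0.36 without Mock replicate 2 (unadjusted p of 0.278).

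Hspa1a was 16.0, 27.8 and 35.0 in Mock, against 12.1, 9.59 and 12.7 in HIF-1α-KD cells (normalized counts), from 8 to 29 reads per library. All HIF-1α-KD libraries were below the Mock libraries, and the highest was Mock replicate 3, the library with the most epithelial marker counts. The log2 fold change was −1.07 ± 0.47 (SE), with a 95% interval of −2.15 to 0.01 and an adjusted p of 0.395 in limma, and it was −0.84 without Mock replicate 3. The unadjusted p of Hspa1a was 0.0514 in limma, and it was under 0.05 in 5 of 15 alternative settings, edgeR among them (0.0294). The copies summed to 762, 1478 and 1251 in the Mock libraries and to 655, 1034 and 635 in the HIF-1α-KD libraries (normalized counts), and the exact permutation test gave 0.2 (two-sided). Hspa1a took 0.928% to 2.8% of the reads of the pair in each library, and the groups overlapped in this share. Without Mock replicate 1, 4 of the 9 genes passed p and fold, as Hspa1a and Hspa1b then joined Hsph1 and Dnajb1, beside 4.69% of all genes in that setting.

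Hspa8 (ENSMUSG00000015656, chr9:40800984-40810087, plus strand), the constitutive HSP70, was 60390, 56860 and 55040 in Mock, against 64810, 53030 and 66970 in HIF-1α-KD cells (normalized counts). The lowest and the highest values were both HIF-1α-KD libraries. The log2 fold change was 0.09 with a 95% interval of −0.26 to 0.45 (limma, adjusted p = 0.835). The interval leaves out a change of 1.5-fold in either direction. Leaving out 1 library gave log2 fold changes from 0.03 (without HIF-1α-KD replicate 3) to 0.20 (without HIF-1α-KD replicate 2).

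Hsp90ab1 (ENSMUSG00000023944, chr17:45567775-45573271, minus strand), the constitutive HSP90, was 140600, 156600 and 168400 in Mock, against 195700, 136300 and 159700 in HIF-1α-KD cells (normalized counts). HIF-1α-KD replicates 1 and 2 were the highest and the lowest of all 6, so the spread within the group was larger than the difference. The log2 fold change was 0.07, with a 95% interval of −0.38 to 0.51 (limma, adjusted p = 0.914), and it was below 0 without Mock replicate 1 (−0.0026) or without HIF-1α-KD replicate 1 (−0.07). Hsp90aa1 (ENSMUSG00000021270, chr12:110690605-110702728, minus strand), the more inducible HSP90, was 14830, 16450 and 20270 in Mock, against 21030, 18450 and 20300 in HIF-1α-KD cells. Mock replicate 3 lay within the range of the HIF-1α-KD libraries, and the log2 fold change was 0.22 (95% interval −0.13 to 0.58; limma, adjusted p = 0.587). It was 0.12 without Mock replicate 1 and 0.35 without Mock replicate 3. The log2 ratio of Hsp90aa1 to Hsp90ab1 was between −3.25 and −3.05 in Mock and between −3.22 and −2.89 in HIF-1α-KD cells, and the exact permutation test gave 0.2.

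Hspd1 and Hspe1 encode HSP60 and HSP10, the barrel and the lid of the mitochondrial chaperonin. Hspd1 (ENSMUSG00000025980, chr1:55077835-55088243, minus strand) was 16940, 16240 and 20320 in Mock, against 26560, 20020 and 23120 in HIF-1α-KD cells (normalized counts). Only Mock replicate 3 and HIF-1α-KD replicate 2 crossed between the groups, and the log2 fold change was 0.38 ± 0.16 (SE; 95% interval 0.01 to 0.75; limma, unadjusted p of 0.0455 and adjusted p of 0.386). In 9 of 16 alternative settings, edgeR and the replicate block among them, its unadjusted p was not under 0.05, and with 1 library left out the value was 0.28 to 0.48. Hspe1 (ENSMUSG00000073676, chr1:55088132-55091307, plus strand) was 6384, 4895 and 8904 in Mock, against 8684, 7250 and 6844 in HIF-1α-KD cells. Its Mock libraries spanned all 3 HIF-1α-KD libraries, with a log2 fold change of 0.21 (95% interval −0.29 to 0.71; limma, adjusted p = 0.728). Single libraries set this value, as it was 0.0026 without Mock replicate 2 and 0.43 without Mock replicate 3. The annotated gene models of this pair overlap at chr1:55088132-55088243, where reads may be assigned to either gene if strand was not used in counting. The log2 ratio of Hspd1 to Hspe1 was 1.19 to 1.73 in Mock and 1.47 to 1.76 in HIF-1α-KD cells.

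Hspb1 (ENSMUSG00000004951, chr5:135887919-135889563, plus strand), the small heat shock protein HSP27 (HSP25 in mice), was barely detected. Its normalized count was 7.39, 0 and 27.8 in Mock, against 8.04, 2.4 and 8.09 in HIF-1α-KD cells, from 0 to 23 reads per library. The highest value was again Mock replicate 3. It did not pass the filter on low counts, and so few reads limit any comparison. Without that filter limma tested all 10 genes and called 0 at an adjusted p under 0.05, beside 44 of 16363 genes. The 2 heat shock matches printed for its promoter are therefore set beside a gene with almost no reads in these cells.

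**Figure D3:**
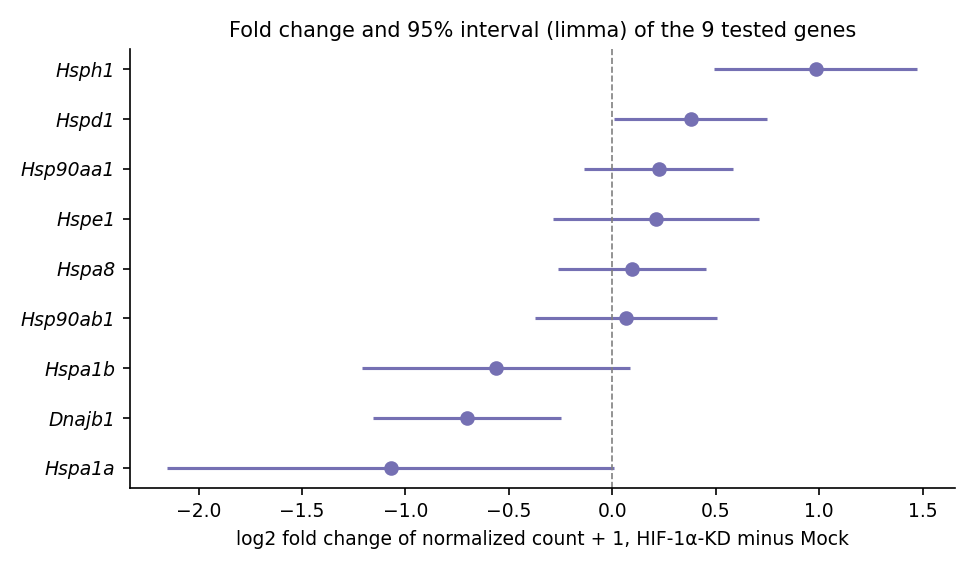
Log2 fold change (HIF-1α-KD minus Mock, points) with its 95% interval (lines) from limma for the 9 genes that passed the filter on low counts. The intervals of Hsph1 (0.49 to 1.47), Hspd1 (0.01 to 0.75) and Dnajb1 (−1.15 to −0.25) do not reach 0, and no gene passed the adjusted threshold.

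Levels between genes were compared as reads per kilobase of the longest coding transcript and per 1000000 reads on genes, since the width behind the deposited FPKM was close to the mean length of all annotated transcripts for several genes (881 bases for Hsp90ab1, whose longest coding transcript has 2520). On this scale Hsp90ab1 was the highest in Mock cells, at 2460 ± 247 (SD, n = 3). Hspa8 followed at 958 ± 49.9, Hspe1 at 345 ± 95.7, Hspd1 at 293 ± 30.5 and Hsp90aa1 at 209 ± 32.8. Dnajb1 (106 ± 12.2) and Hsph1 (75.3 ± 19.1) came next, and Hspa1b had 16.3 ± 5.61. The levels of Hspa1b and Hspa1a are too low on this scale if reads shared by these copies were left uncounted.

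Hspb1 (0.493 ± 0.606) and Hspa1a (0.354 ± 0.130) were the lowest on this scale in Mock cells. Neighbours in this order overlapped over the 6 libraries for Hspe1 and Hspd1, for Dnajb1 and Hsph1, and for Hspb1 and Hspa1a. In HIF-1α-KD cells Hsph1 stood above Dnajb1, at 153 ± 24.7 against 69.7 ± 20.7 (SD, n = 3). By the deposited FPKM, Hsp90ab1 (6224 to 8965) ranked as number 3 of all genes measured and Hspa8 as number 47. These ranks rest on the deposited widths, 881 bases for Hsp90ab1 and 1330 for Hspa8, which are shorter than their longest coding transcripts (2520 and 2394). Ranks among all genes were not computed on the other scale.

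All 10 genes together took 0.984%, 1.12% and 1.14% of the reads on genes in Mock, against 1.36%, 1.07% and 1.25% in HIF-1α-KD cells. The groups overlapped, and the exact permutation test gave 0.3 (two-sided). Hsp90ab1 alone held more than all the others. Without it the share was 0.436%, 0.465% and 0.482% in Mock, against 0.575%, 0.496% and 0.573% in HIF-1α-KD cells. These groups did not overlap (exact permutation p = 0.1, the smallest possible), and this share was chosen after the values had been seen. In such bulk samples a smaller number of cells with a transcript and less transcript per cell cannot be told apart.

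Around these genes, 90 other chaperones, co-chaperones and regulators in 10 lists were examined, of which 81 passed the filter. At an adjusted p under 0.05 limma called 0 of them, and at an unadjusted p under 0.05 it called 8 higher and 5 lower, which is 16% beside 12.7% of all genes. With a fold change of at least 1.5 there were 2 higher and 3 lower, which is 6.17% beside 7.48% of all genes, and their median log2 fold change was 0.05. The genes with a value given in the lists were chosen by a rule on fold and p, and those further named because a list held few such genes were chosen after their values were seen.

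Among regulators of the heat shock response, 1 of 3 tested genes was higher and 0 lower at an unadjusted p under 0.05, beside 7.04% and 5.69% of all genes. This was Hsf1, the heat shock factor itself, with 750, 1146 and 1332 in Mock, against 1777, 1428 and 1554 in HIF-1α-KD cells (normalized counts; log2 fold change 0.59, unadjusted p of 0.0258 and adjusted p of 0.339 in limma). Its HIF-1α-KD libraries lay above all Mock libraries. Hsf2 and the factor-binding protein gene Hsbp1 had log2 fold changes of 0.03 and −0.20 and overlapping groups.

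Of the 16 co-chaperones of HSP90, all tested, 4 were higher and 0 lower at an unadjusted p under 0.05, beside 7.04% and 5.69% of all genes. They were Ahsa1 and Ahsa2, activators of the HSP90 ATPase, the immunophilin Fkbp4 and Nudc. Ahsa1 was 1911, 2732 and 3159 in Mock, against 4511, 3656 and 4022 in HIF-1α-KD cells (normalized counts; log2 fold change 0.67, adjusted p = 0.271 in limma). The log2 fold changes were 0.45 for Ahsa2, 0.42 for Fkbp4 and 0.48 for Nudc. The median of this list was 0.30, and 11 of its 16 genes had a positive value.

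Of 12 tested HSP40 genes of the cytosol, 2 were higher and 2 lower at an unadjusted p under 0.05, beside 7.04% and 5.69% of all genes. Dnajc5, which encodes the cysteine string protein, was 6296, 5680 and 4873 in Mock, against 3011, 3908 and 3643 in HIF-1α-KD cells (normalized counts; log2 fold change −0.67, adjusted p = 0.196 in limma). Dnajb4, of the same class as Dnajb1, had a log2 fold change of −0.54. Dnaja1 (0.45) and Dnajc13 (0.47) were the higher ones.

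Of 5 tested genes of other small heat shock proteins, 0 were higher and 2 lower at an unadjusted p under 0.05, beside 7.04% and 5.69% of all genes. Hspb6 was 188, 197 and 190 in Mock, against 94.9, 101 and 104 in HIF-1α-KD cells (normalized counts; log2 fold change −0.93, adjusted p = 0.181 in limma), and Hspb11 had a log2 fold change of −0.50. Its Mock libraries all lay above its HIF-1α-KD libraries.

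In the endoplasmic reticulum 8 chaperones of the same families were tested. Hsp90b1, the HSP90 of that compartment, was higher (log2 fold change 0.42) and the HSP40 gene Dnajb9 lower (−0.65), both at an unadjusted p under 0.05 (0.0322 and 0.04 in limma), so that 1 of 8 was called in each direction, beside 7.04% and 5.69% of all genes. The other lists held no gene at an unadjusted p under 0.05. In them the smallest p belonged to Hspa4 among 5 other HSP70 and HSP110 genes (log2 fold change 0.29), Bag1 among 8 regulators of the HSP70 cycle (0.26) and Tcp1 among 8 subunits of the TRiC chaperonin (−0.28). Among 6 prefoldin subunits it was Pfdn5 (−0.34), and among 10 other mitochondrial chaperones Hscb (−0.47).

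**Figure D4:**
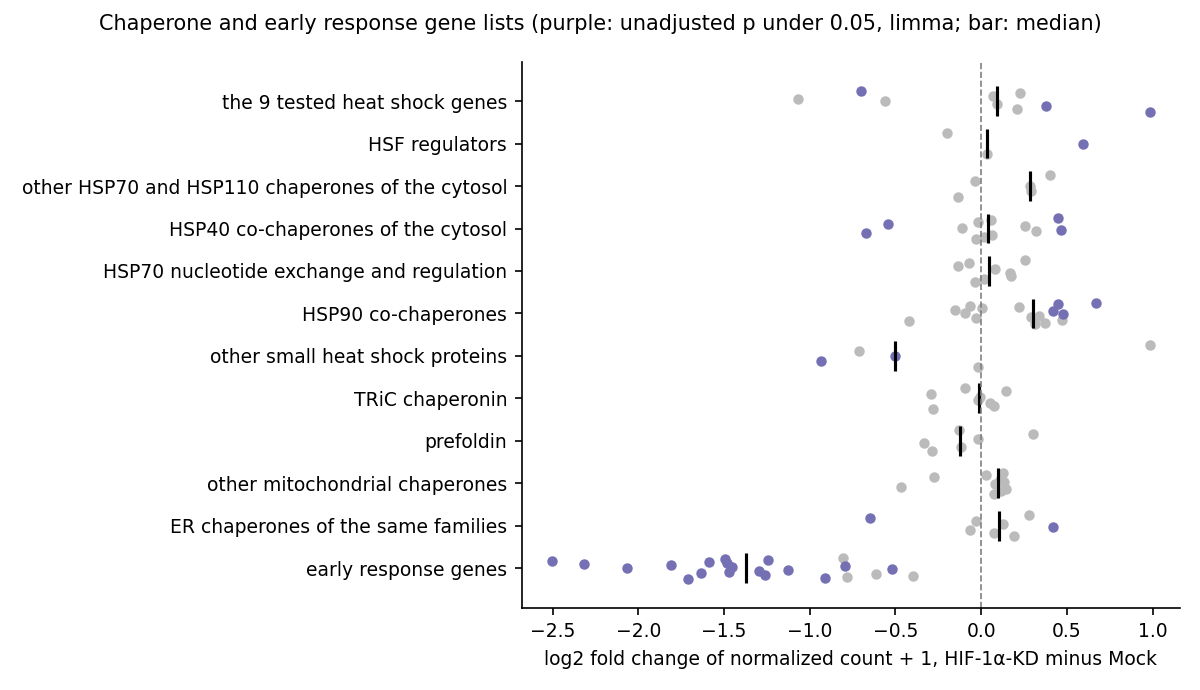
Log2 fold change (HIF-1α-KD minus Mock) of each tested gene (points) by list, with the list's median as a bar and genes at an unadjusted p under 0.05 in limma in purple. The chaperone lists lie on both sides of 0, while all 22 early response genes lie below it.

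Early response genes, which are switched on within minutes by growth factors, stress and tissue handling, were lower in HIF-1α-KD cells. Their summed normalized count was 75620, 89637 and 68941 in Mock, against 15778, 35465 and 43907 in HIF-1α-KD cells. At an unadjusted p under 0.05, 18 of 22 were lower and 0 higher, beside 5.69% and 7.04% of all genes (12 of 22 were lower without Mock replicate 2), with a median log2 fold change of −1.37, and 1 gene, Ier3, was lower at an adjusted p under 0.05 (log2 fold change −2.07, adjusted p = 0.0242 in limma). Dnajb1, Hspa1a and Hspa1b thus lay in the direction of these genes and Hsph1, Hspd1 and Hsf1 in the other. Among Mock libraries Dnajb1, Hspa1b and the early response sum were all highest in replicate 2, but Hspa1a was highest in replicate 3. Dnajb1, Hspa1a and Hspa1b were lowest in Mock replicate 1, whereas the early response sum was lowest in Mock replicate 3. Among HIF-1α-KD libraries Dnajb1 and this sum were both lowest in replicate 1, while Hspa1a was lowest in replicate 2 and Hspa1b in replicate 3. Dnajb1 and Hspa1b were highest in HIF-1α-KD replicate 2, and Hspa1a and the sum in replicate 3. The part of sample handling in the differences of the heat shock genes was not tested.

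Markers of other cells were set beside these values, with calls at an unadjusted p under 0.05 in limma, which 7.04% of all genes passed as higher and 5.69% as lower (12.7% in all). Of 9 tested leukocyte markers 0 were called, and the sum of all 10 was highest in HIF-1α-KD replicate 3 (12464), whose Hsph1 and Dnajb1 values lay between those of the other HIF-1α-KD libraries. In this library Hspa8 was the highest and Hspa1b the lowest of all 6, and without it their log2 fold changes were 0.03 and −0.43. Without this library each of the 9 genes kept the sign of its own log2 fold change. The summed count of 6 endothelial markers was 505 to 624 in Mock and 322 to 483 in HIF-1α-KD cells, most of it Cdh5, and 1 of the 3 tested was lower and 0 higher. That of 7 fibroblast and pericyte markers was 31596 to 51376 in Mock and 24736 to 39681 in HIF-1α-KD cells, with overlap, and was mostly Dcn. Of these 7, 3 were higher and 0 lower, all at 1.5-fold or more (4.02% of all genes were higher at this p and fold). They were the pericyte markers Cspg4 (log2 fold change 1.42), Rgs5 (1.15) and Pdgfrb (0.59, with overlapping groups), which lay in the direction of Hsph1. The rest of the list was not called, with log2 fold changes of 0.33 for Acta2, 0.03 for Pdgfra, −0.16 for Lum and −0.38 for Dcn. Cspg4 was 300, 702 and 1417 in Mock, against 2032, 1905 and 1489 in HIF-1α-KD cells (normalized counts). Whether these marker transcripts came from other cells or from the sorted fluorescent cells themselves was not tested. Nor was the part of other cells in the differences of the heat shock genes.

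Profiles over the 6 libraries were compared with those of the 12005 tested genes that are not among the 10, by the root mean square difference of centred log2 values. The nearest to Hsph1 was Tnfrsf21, a death receptor gene, at 0.0506, followed by Ccdc24, Tex13, Lama5 and Apobr at 0.123 to 0.146, where Hsph1 itself had a root mean square of 0.558 around its mean. The summed Hspa1a and Hspa1b profile had no neighbour as close. Its nearest genes were Sema6b, Tmprss11g, Tle2, Pkp3 and Cdca2 at 0.185 to 0.202, with a root mean square of 0.464 for the pair itself. With 6 libraries and many genes, near profiles occur without any link, and the likeness is given as a description.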

How the data were processed

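The 6 RNA libraries (3 Mock, 3 HIF-1α-KD) were grouped by their labels. Per the study's methods, polyadenylated RNA was sequenced, reads were aligned with STAR, counted with featureCounts and tested with DESeq2. The methods name the human build GRCh38 and the submitters' processing notes GRCm38 with STAR and edgeR, and the table's identifiers are mouse Ensembl genes. Positions came from GENCODE for GRCm38. The deposited normalized counts are a signal that the authors obtained by dividing reads by 1 factor per library. The deposited FPKM values were computed by the authors per kilobase of a gene width. The authors' columns of log2 ratio, p-value, false discovery rate and cluster were not used.

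Reads were recovered from the normalized counts, and 100% of values up to 300 reads were whole within 0.15. Genes were filtered with filterByExpr (edgeR 4.0.16, minimum count of 10), which left 12014. The main test was limma 3.58.1 on log2(normalized count + 1) with the prior variance following mean expression, two-sided, adjusted by Benjamini and Hochberg over all genes tested. Single quantities were compared with an exact permutation test, whose smallest p is 0.1. The named genes of each list were those at an adjusted p under 0.05, otherwise up to 2 in each direction at p under 0.05 and 1.5-fold, otherwise the one with the smallest p, besides the 5 nearest profiles. The 10 genes and all lists were chosen with earlier results of these data known. Alternatives were edgeR, DESeq2 1.42.0, no trend, a replicate block, other scaling, pseudocounts and filter, the HSP70 copies summed, and each library left out. Scripts were tested on simulated data, with R 4.3.3, scipy 1.17.1, matplotlib 3.10.9, numpy 2.4.6, pandas 2.3.3 and Python 3.11.15.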

Additional observations from a re-analysis of the deposited data

How the results depend on the processing

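Across the alternatives to the main test, 8 of the 9 heat shock genes kept the sign of their log2 fold change. Hsp90ab1 did not, at −0.0026 without Mock replicate 1, −0.069 without HIF-1α-KD replicate 1 and 0.19 without HIF-1α-KD replicate 2. The 47 genes called by limma became 283 with DESeq2, 1 without the trend, 0 with the replicate block and 0 to 38 with 1 library left out. At 3 against 3 libraries the number of calls thus depends on the test and on single libraries. The single call among these genes depends on the test, and DESeq2 was not run with a library left out. Heat shock genes called numbered 1 with DESeq2 (Hsph1, adjusted p = 0.0036) and 0 in every other setting run, including each library left out. Those past p and fold numbered 1 to 4 with 1 library left out, the fewest without HIF-1α-KD replicate 1 (8.14% of all genes) and the most without Mock replicate 1 (4.69%), and 2 or 3 in the other settings (7% to 7.81% of all genes with all libraries). The median log2 fold change of these genes was 0.05 to 0.20 with 1 library left out, and the log2 ratio of the summed HSP70 copies was −0.85 to −0.38. The log2 ratio of the share of reads on all 10 genes was 0.10 to 0.27 and the difference in the log2 ratio of Hsph1 to Dnajb1 was 1.39 to 2.03. Correlations of deviations were −0.139, −0.123 and 0.0228 between same-numbered libraries, and −0.0716 to 0.162 between differently numbered ones. With 3 libraries per group these values cannot decide whether replicate numbers pair the samples. The second principal component held 25.2% of the variance. Along it both groups ran from replicate 1 to 3 (Mock 25.7, 8.22 and 4.67, HIF-1α-KD 22.7, −22.2 and −39.1). With the replicate block Hsph1 had an adjusted p of 0.261 and Dnajb1 of 0.269, and no adjusted call on these genes differed, while at an unadjusted p under 0.05 Hspd1 dropped out (0.0521) and Hspa1b came in (0.0282). The alternatives on sums, shares and ratios were chosen after the values were seen. Hspa1a (8 to 29 reads) and Hspb1 (0 to 23 reads) are limited by depth.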
